A study of Mus musculus with 6 samples.

Results

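The genes described here are 39 genes of microglia and brain macrophages, chosen by symbol as homeostatic, activated and perivascular myeloid genes. They were read from 40 rows of a table of 51826 genes, because Itgam is listed on a second row that had no count in any library. Expression was measured by mRNA sequencing of mouse brain tissue labelled as the paraventricular nucleus (PVN) of the hypothalamus. There were 3 wild-type (WT) libraries and 3 knockout (KO) libraries from mice that lack ADAM17 in glutamatergic neurons, the membrane protease that sheds cytokines, growth factors and receptors from cell surfaces. In both genotypes replicates 1 and 2 were male and replicate F1 was female. The labels name no strain, age, Cre driver or pooling, and no angiotensin treatment, although the series title names angiotensin II and microglia. Nothing in them says whether the libraries of a genotype came from separate animals, so p-values measure only the spread between these libraries, which may be technical.

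Microglia are the resident macrophages of the brain parenchyma, and they depend on signalling through CSF1R and on TGF-beta for survival and identity. Perivascular macrophages are a separate resident population along blood vessels. Microglia survey synapses, tag and engulf material with complement C1q and TAM receptors, digest it in lysosomes, and change their program through the TREM2-TYROBP pathway. In this bulk tissue, fewer cells of a type and less RNA per cell cannot be told apart. Several of the genes, among them Ctsb, Ctsd, Lpl, Tgfbr1, Mertk and Axl, are also made by other brain cells.

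Libraries held between 35114426 and 54421330 counts, and a floor of 3 counts corresponded to between 0.055 and 0.085 CPM (counts of a gene relative to the library total). For the genes named below, CPM is relative to that total scaled by TMM, a factor that aligns the bulk of genes between libraries. The WT libraries held Adam17 at 17.1 CPM (replicate 1), 17.2 CPM (replicate 2) and 15.6 CPM (replicate F1), and the KO libraries, in the same order, at 15.4, 14.6 and 13.9 CPM (edgeR log2 fold change −0.19 with SE 0.11, adjusted p = 0.747). The KO libraries lay below the WT libraries, but Adam17 did not pass the test. Its gene model overlaps Iah1, and which exons were deleted is not given in the sources used here. KO replicate 1 stood apart, with 20.63% of its counts on mitochondrially encoded genes against 7.22% to 9.2% in the other 5 libraries. Its deposited TPM, a value per transcript length, of the median gene was 0.61 of the WT mean. The PVN marker Avp, the vasopressin gene, stood at 27.7, 5.96 and 38.2 CPM in WT and 5.25, 8.34 and 13.8 CPM in KO. The cortical marker Neurod6 ranged from 54.6 to 113 CPM, so markers of tissue outside the PVN were present in every library.

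All 39 member genes passed the filter on low counts, and levels spanned from 0.478 TPM for Ms4a7 to 278 TPM for Ctsd, as means over the 6 libraries. The most abundant transcripts per length were lysosomal and complement genes. Ctsd (278 ± 72.5 TPM) and Ctsb (256 ± 42.1 TPM) were followed by Ctss (96.2 ± 24.0 TPM), C1qa (95.0 ± 25.5 TPM), C1qc (79.8 ± 20.9 TPM) and C1qb (78.4 ± 16.2 TPM; SD, n = 6 libraries each). Ctsd and Ctsb differed by less than their SD, as did neighbours among Ctss and the C1q genes, whereas Ctsb lay above Ctss by more than their SD. Among surface and signalling genes of microglia, Selplg stood at 42.1 TPM, Csf1r at 37.3 TPM, Tyrobp at 28.2 TPM, Tmem119 at 18.8 TPM and Trem2 at 9.52 TPM. The perivascular macrophage genes Ms4a7 (0.478 TPM), Mrc1 (2.07 TPM), Cd163 (2.17 TPM) and Stab1 (8.05 TPM) were lower than these microglial genes. Other microglial genes, such as Siglech at 4.20 TPM, lay below Stab1, so levels overlapped between microglial and perivascular genes. KO replicate 1 had the lowest TPM of the 6 libraries for most genes in the plot of levels, an offset that it also had for the median gene of the table. Genotypes were compared on CPM with TMM scaling, which aligns the bulk of genes between libraries.

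**Figure D1:**
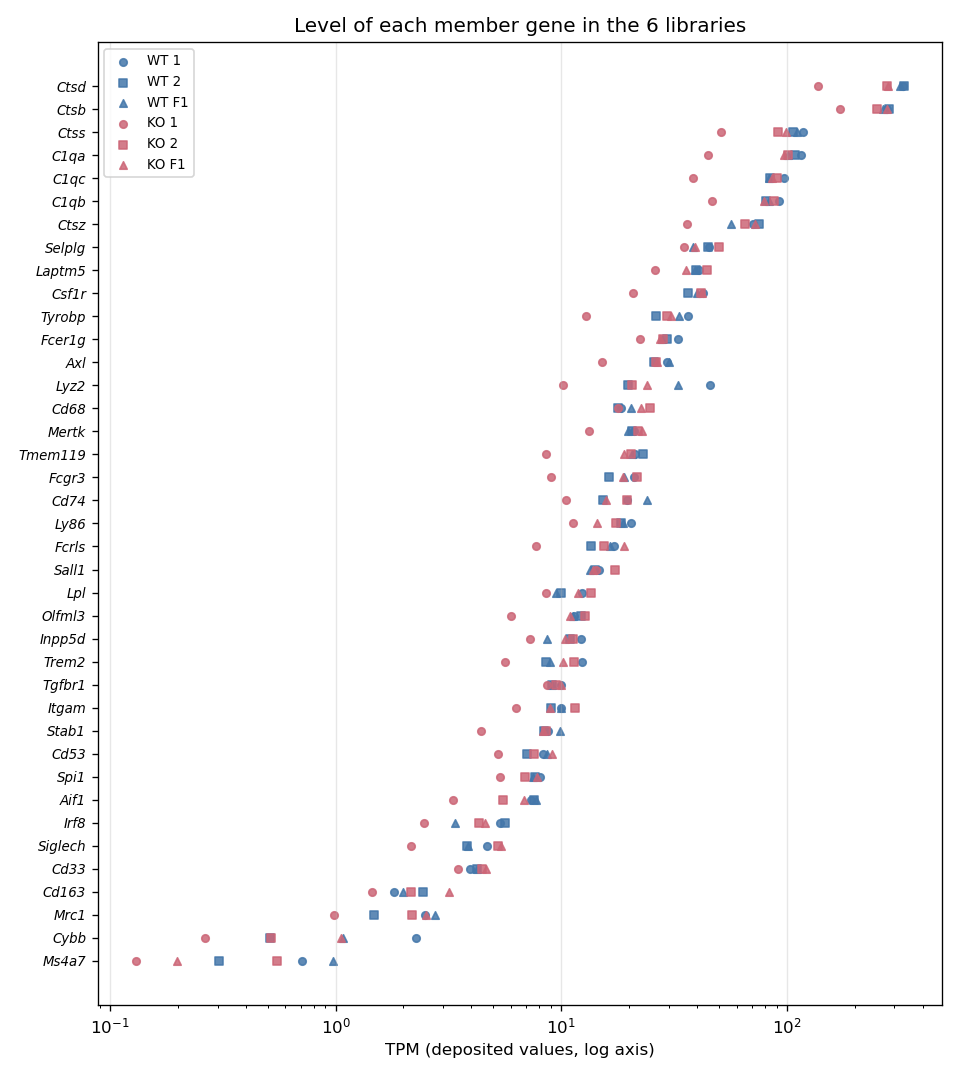
Deposited TPM on a log axis for each of the 39 member genes, ordered by mean, with 1 point per library (blue WT, red KO; circle replicate 1, square replicate 2, triangle replicate F1). Levels run from 0.478 TPM for Ms4a7 to 278 TPM for Ctsd, and the KO replicate 1 circles lie to the left for most genes.

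The comparison of KO with WT asked whether loss of neuronal ADAM17 went with altered levels of these genes. No member gene passed at an adjusted p of 0.05 in edgeR's quasi-likelihood test (smallest adjusted p = 0.735), against 1 of 18956 genes tested (0.00528%). DESeq2 and limma-trend called 0 members as well. Unadjusted p-values under 0.05 were found for 3 members that were higher in KO, Cd68, Lpl and Sall1, where 3.85% of all genes tested met this, and for 0 members that were lower, where 2.53% did. The genotypes did not overlap, with KO higher, for Tgfbr1, Mertk, Cd68 and Cd163 (6.61% of all genes), and with KO lower, for Aif1, Ctss and Ctsd (7.32% of all genes). Of the 39 members 23 had a log2 fold change above 0 and 16 below 0. Their median was 0.03, beside −0.004 for all genes tested, of which 49.4% were above 0. The median absolute log2 fold change was 0.14 for the members and 0.16 for all genes. The direction of the median depended on the scaling. With library totals alone the median of all genes moved to −0.17 and that of the members to −0.13, with 9 members above 0, and on log2(TPM + 1) they moved to −0.24 and −0.26, with 5 members above 0. Cd68, Sall1 and Lpl were above 0 under both.

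**Figure D2:**
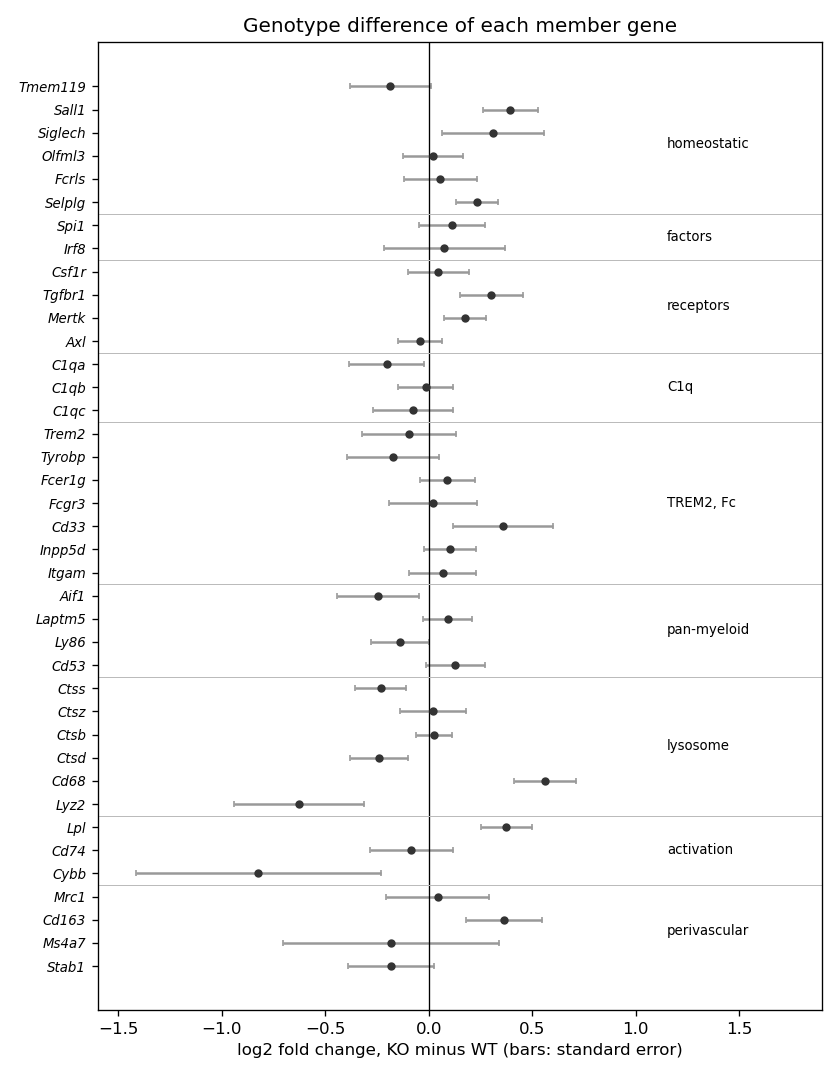
Log2 fold change, KO minus WT, of each member gene from the edgeR fit with sex as a term, with bars of 1 standard error, grouped by role. Cd68 lies highest at 0.56, Lyz2 (−0.63) and Cybb (−0.82) lie lowest with wide bars, and the C1q genes lie at or below 0.

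The libraries of 1 genotype differed from each other in these genes. In KO replicate 2, 34 of the 39 members lay above the mean of the WT libraries on the log2 CPM scale, with a median difference of 0.14. In KO replicate 1, 14 lay above that mean and the median difference was −0.18. In KO replicate F1 the count was 23 and the median difference 0.03, and in WT replicate 1 they were 31 and 0.08. Of all genes tested, 49.18%, 50.77%, 49.07% and 48.76% lay below the WT mean in these libraries, in the same order. Their median differences were 0.005, −0.008, 0.004 and 0.004. KO replicate 1 was the lowest of the 6 libraries for 18 members and the highest for 7, while 29.52% of all genes tested were lowest and 28.26% highest in it. Its low members included Tmem119, Csf1r, the C1q genes, Trem2, Tyrobp, Aif1 and Ctss, and its high members were Sall1, Selplg, Spi1, Tgfbr1, Fcer1g, Cd33 and Cd68. KO replicate 2 was the lowest library for 0 members, beside 14.58% of all genes. Without KO replicate 1, 30 of the 39 members had a log2 fold change above 0 and the median was 0.12, beside −0.001 for all genes tested. When each of the 6 libraries was left out in turn, the log2 fold change of 20 members changed sign at least once, and that of 14 others moved by more than 1.5 times. The 5 members that kept their sign and stayed within 1.5 times were Sall1, Selplg, Mertk, Cd68 and Lpl.

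**Figure D3:**
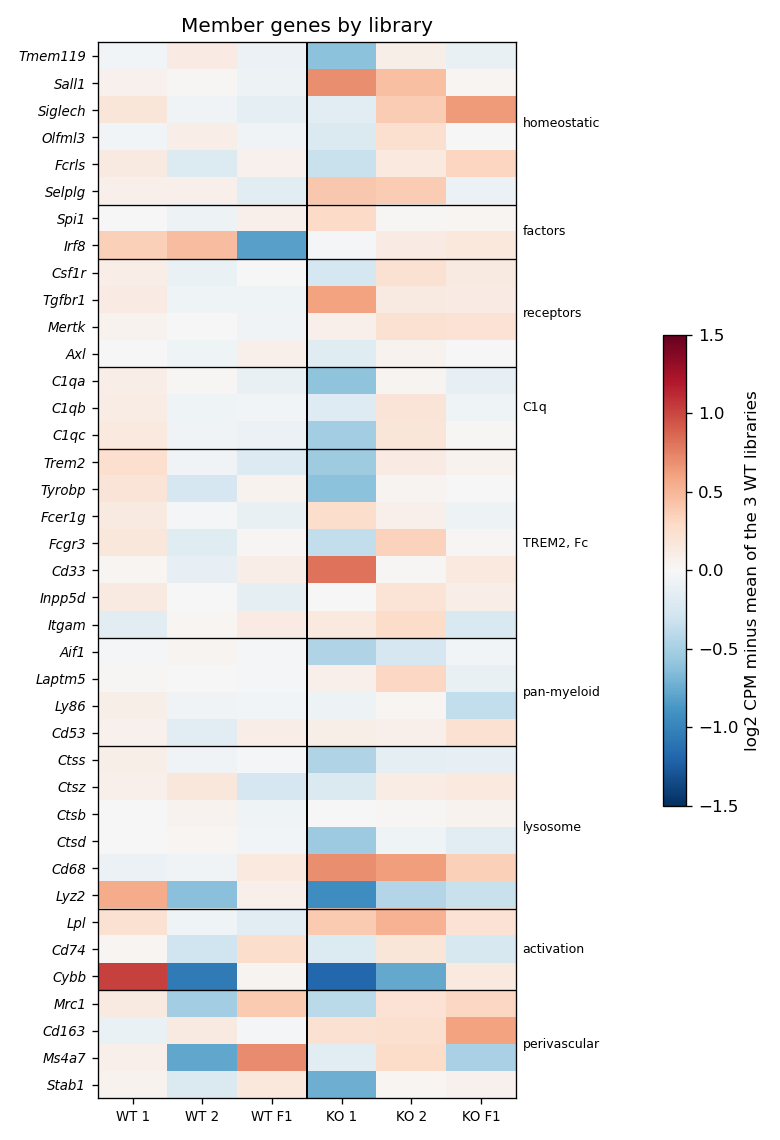
Log2 CPM of each member gene (rows, grouped by role) in each library (columns), minus the mean of the 3 WT libraries; red is higher and blue lower. KO replicate 2 is above the WT mean for 34 of 39 genes, while 49.18% of all genes tested lay below it there. KO replicate 1 mixes low genes such as C1qa and Tmem119 with high genes such as Sall1 and Cd68.

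Among the genes of homeostatic microglial identity, Sall1 was higher in KO in the males and Tmem119 was low in 1 KO library. Sall1 (ENSMUSG00000031665, chr8:89027235-89044162, minus strand, GRCm38), which encodes the transcription factor that maintains microglial identity, stood at 32.9, 32.0 and 29.8 CPM in the WT libraries (replicates 1, 2 and F1, the order used below) and at 51.0, 43.2 and 32.1 CPM in the KO libraries. Both KO males lay above every WT library and the KO female lay within the WT range. The fold was 1.31 (edgeR log2 fold change 0.39 with SE 0.13, adjusted p = 0.735). Tmem119, a membrane protein that marks microglia, stood at 19.6, 22.0 and 18.9 CPM in WT and 13.1, 21.4 and 18.6 CPM in KO. KO replicate 1 lay well below the WT range and the KO female just below it, and the log2 fold change of −0.19 (SE 0.20) became 0.01 without KO replicate 1. The log2 fold changes of the other 4 genes were 0.31 for Siglech, a sialic acid-binding lectin, 0.02 for the secreted protein gene Olfml3, 0.06 for the Fc receptor-like gene Fcrls and 0.23 for Selplg, the P-selectin ligand. In all, 5 of the 6 were above 0 with a median of 0.14, and without KO replicate 1 all 6 were above 0 with a median of 0.21.

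The macrophage lineage factors showed no shift that exceeded the spread. Spi1, which encodes PU.1, the master factor of myeloid cells, stood at 5.26, 4.99 and 5.59 CPM in WT and 6.46, 5.32 and 5.37 CPM in KO (log2 fold change 0.11 with SE 0.16). The KO libraries overlapped the WT range except for replicate 1. Irf8, a partner of PU.1 in microglia, had a log2 fold change of 0.07 (SE 0.29), and its lowest library was the WT female at 2.80 CPM against 4.86 to 6.88 CPM in the other 5.

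Among the growth factor and TAM receptors, Tgfbr1 and Mertk were higher in all 3 KO libraries. Tgfbr1, the type I TGF-beta receptor, stood at 23.5, 20.6 and 20.7 CPM in WT and 32.9, 23.8 and 23.6 CPM in KO. The lowest KO library, at 23.6 CPM, lay just above the highest WT library, at 23.5 CPM, so the log2 fold change of 0.30 (SE 0.15, edgeR adjusted p = 0.740) rested mostly on KO replicate 1, and it was 0.14 without that library. Mertk, a TAM receptor for engulfment of dying cells, stood at 38.2, 37.1 and 35.5 CPM in WT and 38.9, 43.1 and 43.0 CPM in KO (edgeR log2 fold change 0.18 with SE 0.10, adjusted p = 0.747). Here KO replicates 2 and F1 were the high ones. Csf1r, the receptor for CSF1 and IL-34, stood at 84.6, 73.7 and 79.3 CPM in WT and 66.1, 92.4 and 86.7 CPM in KO. The KO libraries fell on both sides of the WT range, and the log2 fold change was 0.05 (SE 0.15). Axl, the other TAM receptor, had a log2 fold change of −0.04.

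**Figure D4:**
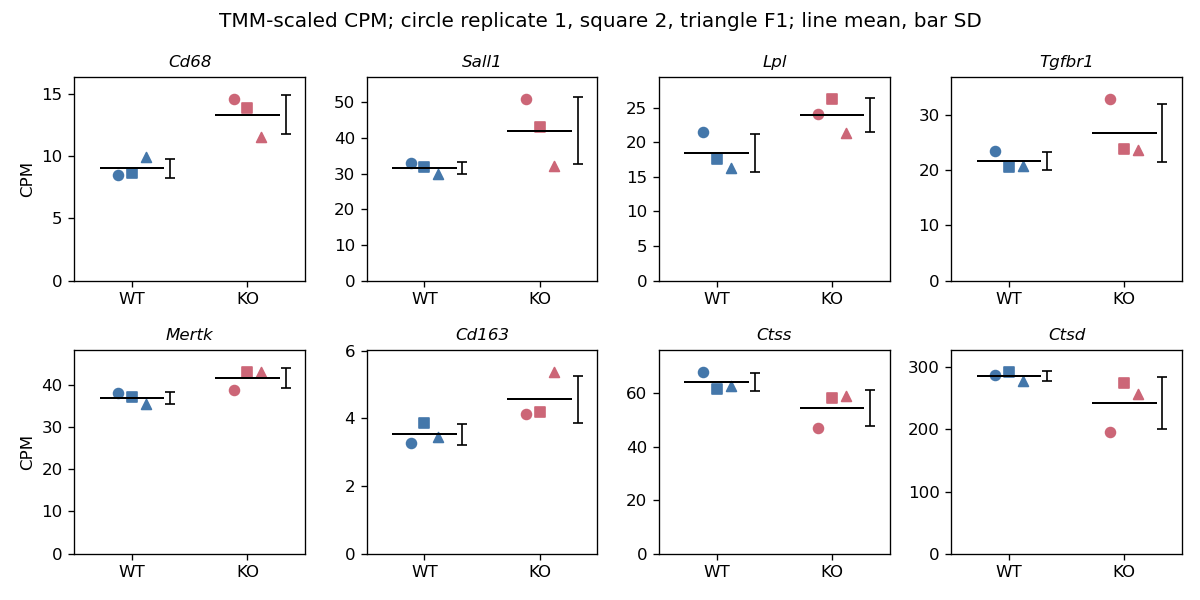
TMM-scaled CPM of 8 member genes in each library (blue WT, red KO; circle replicate 1, square replicate 2, triangle replicate F1), with the genotype mean as a line and SD as a bar (n = 3). The KO points lie above the WT points for Cd68, Tgfbr1, Mertk and Cd163 and below them for Ctss and Ctsd, while Sall1 and Lpl overlap through the KO female.

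The C1q genes encode the chains of the complement component that tags synapses and debris, and they followed each other across libraries. C1qa stood at 51.4, 48.7 and 44.5 CPM in WT and 31.6, 49.7 and 44.2 CPM in KO. C1qb stood at 42.6, 37.9 and 38.3 CPM in WT and 34.5, 45.1 and 37.8 CPM in KO, and C1qc at 49.6, 43.4 and 42.2 CPM in WT and 31.4, 51.2 and 45.5 CPM in KO. All 3 were lowest in KO replicate 1, and the other KO libraries were close to the WT range. The log2 fold changes were −0.20 (SE 0.18) for C1qa, −0.02 (SE 0.13) for C1qb and −0.08 (SE 0.19) for C1qc. Without KO replicate 1 they were −0.01, 0.09 and 0.13.

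Ratios between member genes, taken within a library on the TPM scale, were also compared. The C1qa to C1qb ratio was 1.28 ± 0.064 in WT and 1.11 ± 0.14 in KO (SD, n = 3 each; two-sided exact permutation test p = 0.2, adjusted p = 0.3 over the 3 ratios compared). The C1qc to C1qb ratio was 1.03 ± 0.029 in WT and 0.98 ± 0.14 in KO (exact permutation p = 0.8, adjusted p = 0.8), and the Tyrobp to Trem2 ratio was 3.25 ± 0.42 and 2.63 ± 0.36 (exact permutation p = 0.2, adjusted p = 0.3). With 3 libraries against 3 the smallest p this test can give is 0.1, so none could pass 0.05.

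In the TREM2-TYROBP and Fc receptor group, 5 of 7 genes were above 0 with a median of 0.07. Trem2, the lipid-sensing receptor of activated microglia, stood at 8.39, 6.81 and 6.11 CPM in WT and 4.86, 7.67 and 7.28 CPM in KO. Tyrobp, its signalling adaptor, stood at 8.73, 6.38 and 7.90 CPM in WT and 4.97, 7.85 and 7.57 CPM in KO. For both, KO replicate 1 was the low library and the others overlapped, with log2 fold changes of −0.10 (SE 0.23) and −0.17 (SE 0.22) that became 0.12 and 0.01 without it. The Fc receptor subunit gene Fcer1g (0.09), the Fc gamma receptor gene Fcgr3 (0.02), the SHIP1 phosphatase gene Inpp5d (0.10) and the integrin alpha M gene Itgam (0.07) had log2 fold changes near 0. Cd33, an inhibitory lectin receptor, had 0.36 (SE 0.24), with KO replicate 1 at 11.7 CPM and the other 5 libraries at 6.05 to 7.33 CPM, and it was 0.06 without that library. Among the pan-myeloid genes, Aif1, which encodes the cytoskeletal protein IBA1, stood at 2.63, 2.76 and 2.63 CPM in WT and 1.95, 2.24 and 2.60 CPM in KO. The KO female was close to the WT libraries, and the log2 fold change was −0.25 (SE 0.20, edgeR adjusted p = 0.793). The lysosomal membrane gene Laptm5 had 0.09, Ly86 −0.14 and the tetraspanin gene Cd53 0.13.

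The lysosomal genes went in both directions, 3 above 0 and 3 below. Cd68 (ENSMUSG00000018774, chr11:69664213-69666153, minus strand), a lysosomal glycoprotein used as a marker of phagocytic microglia, stood at 8.48, 8.67 and 9.95 CPM in WT and 14.6, 13.9 and 11.6 CPM in KO. Every KO library lay above every WT library, at a fold of 1.48 (log2 fold change 0.56, SE 0.15, edgeR unadjusted p = 0.00779, adjusted p = 0.735). The cysteine protease gene Ctss stood at 68.1, 61.7 and 63.0 CPM in WT and 46.9, 58.3 and 58.9 CPM in KO (edgeR log2 fold change −0.23 with SE 0.12, adjusted p = 0.744). The aspartic protease gene Ctsd stood at 289, 293 and 278 CPM in WT and 196, 275 and 257 CPM in KO (edgeR log2 fold change −0.24 with SE 0.14, adjusted p = 0.747). For both proteases the KO libraries lay below the WT libraries, most in replicate 1, and without that library the log2 fold changes were −0.13 for Ctss and −0.09 for Ctsd. Ctsb and Ctsz, the other cathepsin genes, had log2 fold changes of 0.03 and 0.02.

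The promoters of Ctss, C1qc and Ctsd are shown as examples, chosen after their values were seen, because each holds a word known to be bound by a factor of myeloid or lysosomal genes and the genes lay lowest in KO replicate 1. Each is given 5′ to 3′ on the strand of the gene, from 200 bases before to 30 bases after the transcription start, from RefSeq on GRCm38.p6, with the match in capitals. In Ctss (chr3:95526586-95526815, plus strand) and C1qc (chr4:136892885-136893114, minus strand) it is the PU.1 word GAGGAAGT on the opposite strand, and in Ctsd (chr7:142387798-142388027, minus strand) it is TCACGTGA, the core of the CLEAR element of lysosomal genes.
Ctss: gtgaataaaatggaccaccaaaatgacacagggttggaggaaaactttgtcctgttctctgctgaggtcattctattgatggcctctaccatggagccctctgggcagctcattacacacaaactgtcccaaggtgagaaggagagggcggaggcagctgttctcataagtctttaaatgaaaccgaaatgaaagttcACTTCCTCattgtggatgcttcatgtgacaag
C1qc: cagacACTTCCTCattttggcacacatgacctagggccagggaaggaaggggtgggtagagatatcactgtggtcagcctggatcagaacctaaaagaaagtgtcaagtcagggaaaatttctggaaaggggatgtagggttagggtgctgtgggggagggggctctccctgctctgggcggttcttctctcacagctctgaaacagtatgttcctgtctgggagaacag
Ctsd: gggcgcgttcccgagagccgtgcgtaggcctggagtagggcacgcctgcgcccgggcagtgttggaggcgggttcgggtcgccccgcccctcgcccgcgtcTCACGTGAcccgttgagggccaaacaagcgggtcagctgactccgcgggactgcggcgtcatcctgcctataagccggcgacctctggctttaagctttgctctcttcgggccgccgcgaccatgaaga
The match begins at −2 relative to the start site in Ctss, at −195 in C1qc and at −99 in Ctsd. In the 300-base windows of promoters, searched on both strands, GAGGAAGT was found for 4 of the 30 members with a window (13.3%: C1qc, Cd53, Ctss and Inpp5d), beside 3.28% of 27025 genes. TCACGTGA was found for 2 (6.7%: Ctsd and Siglech), beside 1.01%, and the composite word of PU.1 and IRF factors for 2 (6.7%: Cd68 and Cybb), beside 2.79%. The words did not go with 1 pattern across libraries. Siglech and Cybb were lowest in KO replicate 1 as well, whereas Cd53 was lowest in WT replicate 2 and Inpp5d in WT replicate F1, and Cd68 was highest in KO replicate 1. A match of letters is not a bound site, and none was measured here.

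Of the activation genes, Lpl had a higher mean in KO, Cybb was variable and Cd74 lay near 0. Lpl (ENSMUSG00000015568, chr8:68880491-68907448, plus strand), the lipoprotein lipase gene of lipid-loading microglia, stood at 21.5, 17.5 and 16.3 CPM in WT and 24.1, 26.3 and 21.4 CPM in KO. Both KO males lay above every WT library, and the KO female, at 21.4 CPM, lay just below WT replicate 1. The fold was 1.30 (edgeR log2 fold change 0.38 with SE 0.12, adjusted p = 0.735). Cd74, the class II invariant chain gene, had a log2 fold change of −0.09 (SE 0.20).

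Most markers of neurons and of cortex had log2 fold changes above 0 as well, beside Cd68, Sall1 and Lpl. Of the 4 neuron markers, Rbfox3 (log2 fold change 0.34), Snap25 (0.39) and Syt1 (0.30) had unadjusted p-values under 0.05 in edgeR and Tubb3 had −0.18, with summed levels of 4006 to 4984 TPM in WT and 4107 to 4872 TPM in KO. Of the 5 cortex and hippocampus markers all 5 were above 0, with a median of 0.34 and summed levels of 718 to 935 TPM in WT and 539 to 1023 TPM in KO. Of the 6 PVN markers 1 was above 0 and 5 below, with a median of −0.51. Their summed levels were 269.9, 77.55 and 339.5 TPM in WT and 62.05, 82.26 and 155.2 TPM in KO. Without the KO female library 3 of the 6 were above 0, with a median of −0.105. None of these markers was at 0 in the libraries, and their part in the values of Cd68, Sall1 and Lpl was not tested.

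Lyz2 and Cybb had the lowest fold changes of the members, and both were high in WT replicate 1. Lyz2, the lysozyme gene of macrophages and neutrophils, stood at 25.6, 11.2 and 18.3 CPM in WT and 9.10, 12.8 and 13.8 CPM in KO, with a log2 fold change of −0.63 (SE 0.32). Cybb, the catalytic subunit gene of the phagocyte NADPH oxidase, stood at 4.15, 0.94 and 2.07 CPM in WT and 0.87, 1.16 and 2.23 CPM in KO, with a log2 fold change of −0.82 (SE 0.59). Without WT replicate 1 the values were −0.19 and 0.11. The same library held genes of neutrophils and some of the monocyte markers at levels the others did not. The neutrophil genes S100a9 and Ngp stood at 24.8 and 30.8 CPM in it and at no more than 3.24 and 2.87 CPM elsewhere. The monocyte marker Chil3 stood at 7.42 CPM in it against 0.21 to 0.29 CPM. Summed TPM of the 5 neutrophil markers was 256, 11.1 and 29.7 in WT and 3.33, 7.04 and 12.2 in KO. Summed TPM of the 4 monocyte markers was 25.2, 5.21 and 4.93 in WT and 3.05, 4.29 and 5.86 in KO. Of these 4, Chil3, Ly6c2 and Plac8 were highest in WT replicate 1. Ccr2 was not, at 0.9498 CPM there and 0.9509 CPM in WT replicate F1. The 3 T cell markers summed to between 0.339 and 0.946 TPM over all libraries, and 1 of them had no count in any. The part of these cells in the values of the other members was not tested.

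**Figure D5:**
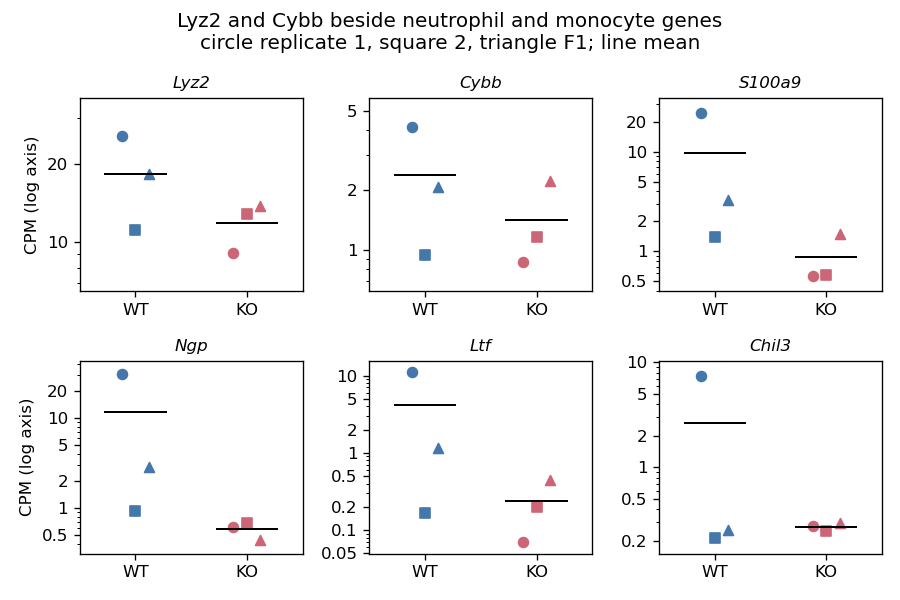
TMM-scaled CPM on log axes of the members Lyz2 and Cybb beside the neutrophil genes S100a9, Ngp and Ltf and the monocyte gene Chil3 (blue WT, red KO; circle replicate 1, square replicate 2, triangle replicate F1; line, genotype mean). WT replicate 1 is the highest library in each panel, at 25.6 CPM for Lyz2 and 30.8 CPM for Ngp.

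The perivascular macrophage genes overlapped between genotypes except Cd163. Mrc1, the mannose receptor gene, stood at 5.24, 3.32 and 6.27 CPM in WT and 3.61, 5.57 and 5.93 CPM in KO (log2 fold change 0.04 with SE 0.25). Stab1, a scavenger receptor gene, stood at 20.5, 17.0 and 22.2 CPM in WT and 11.9, 20.2 and 20.7 CPM in KO (log2 fold change −0.18 with SE 0.21), with KO replicate 1 the only KO library outside the WT range. The value was 0.02 without that library. Cd163, the hemoglobin scavenger receptor gene, stood at 3.27, 3.86 and 3.45 CPM in WT and 4.13, 4.18 and 5.37 CPM in KO, each KO library above every WT library (edgeR log2 fold change 0.36 with SE 0.18, adjusted p = 0.738). The value was 0.22 without either female library, which leaves the contrast of the males. Ms4a7 had between 9 and 40 counts per library and a log2 fold change of −0.18 (SE 0.52), smaller than its error.

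Gene models of Csf1r, Ctsz, Ctsb, Ctsd and Stab1 overlap another tested gene, namely Hmgxb3, Nelfcd, Fdft1, AC034099.1 and Nt5dc2 in that order. Their values are uncertain because the strand setting of the counting is not given in the sources used here.

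Selplg had the smallest p of the members between female and male libraries. In the sex term of the same edgeR fit, 0 members passed (smallest adjusted p = 0.941), against 8 of 18956 genes (0.0422%). Selplg was lower in female libraries (log2 fold change −0.36, SE 0.11, edgeR unadjusted p = 0.0162, adjusted p = 0.941), the 1 member with an unadjusted p under 0.05 in that direction (2.63% of all genes). In the other direction 0 members met this (1.95% of all genes).

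Genes of the pathways around the members were read from lists of 66 partner genes, of which 63 were tested. Of these 29 were above 0 and 34 below, with a median of −0.01, and 0 passed in edgeR. There 3 had an unadjusted p under 0.05, all higher in KO. Of all genes tested, 3.85% met this with KO higher and 2.53% with KO lower. DESeq2 called 1 partner, P2ry12 (adjusted p = 0.0124), beside 74 genes over all genes tested, and limma-trend called 0 partners. The ligand genes of CSF1R overlapped between genotypes, with Csf1 at 17.0, 19.5 and 23.2 CPM in WT and 19.6, 18.7 and 17.1 CPM in KO (log2 fold change −0.10), and the neuron-derived ligand gene Il34 at 0.11. All 10 genes of TGF-beta signalling to microglia were above 0, with a median of 0.14. This count was 5 of 10 when counts were scaled by library totals alone, 2 of 10 on log2(TPM + 1), and 8 to 10 of 10 when each library was left out in turn. The median of all genes itself moved to −0.169 with library totals and −0.239 on log2(TPM + 1). Above that median lay 10 of 10 and 7 of 10 of these genes. They include the ligand gene Tgfb1, at 9.92, 8.83 and 9.73 CPM in WT and 12.99, 12.8 and 10.6 CPM in KO (edgeR log2 fold change 0.35 with SE 0.14, adjusted p = 0.735), whose KO libraries lay above the WT libraries. Itgav, the integrin subunit that activates latent TGF-beta, stood at 67.6, 32.7 and 25.5 CPM in WT and 86.3, 63.4 and 63.2 CPM in KO (edgeR log2 fold change 0.82 with SE 0.31, adjusted p = 0.735). WT replicate 1 overlapped the KO libraries for it.

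Of the ligands and kin of the TAM receptors, 0 of 3 were above 0, with Pros1 at −0.13 and Gas6, the ligand of Axl and Mertk, at −0.09 (1 of 3 without KO replicate 1 or WT replicate 2). Of the 6 tested ligands and effectors of the TREM2 pathway 4 were above 0, with Sirpa at 0.38, Plcg2 at −0.24 and the lipoprotein gene Apoe at 0.21. Their median of 0.15 was 0.07 without KO replicate 2. Without KO replicate 1, where 7 genes of this list passed the filter, the median of those 7 was 0.04. The classical complement partners of C1q were above 0 for 1 of 6, with C3 at −0.72 (SE 0.50) and C4b at −0.24. C3 stood at 4.57 CPM in WT replicate 1 and at 1.05 to 1.86 CPM in the other 5 libraries, and the median of the 6 genes, −0.20, was −0.02 without WT replicate 1, −0.11 without KO replicate 1, −0.31 without WT replicate 2 and −0.32 without KO replicate 2. Of the 6 class II genes 3 were above 0, with the transactivator gene Ciita at −0.52 (SE 0.32) and H2-Eb1 at −0.29. This count was 5 of 6 without either female library and 1 of 6 without WT replicate 1 or KO replicate 2. The NADPH oxidase partners of Cybb were below 0 for 5 of 5, with a median of −0.19, and Cyba at −0.23 and Ncf4 at −0.21 among them. Without KO replicate 1 the count was 3 of 5, and without WT replicate 1, the library with the neutrophil genes, it was 2 of 5 with a median of 0.04. Cst3, the cathepsin inhibitor gene of high level, stood at 640, 615 and 587 CPM in WT and 384, 580 and 573 CPM in KO (log2 fold change −0.27 with SE 0.17, −0.08 without KO replicate 1 and −0.42 without KO replicate 2), with every KO library below the WT libraries, while Cst7 and Csta1 were too low to test.

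The other homeostatic microglia genes were above 0 for 3 of 10, with a median of −0.10 (4 of 10 and −0.06 without WT replicate 1 or KO replicate 1, and −0.23 without KO replicate 2). P2ry12, the purinergic receptor gene, stood at 16.9, 21.7 and 9.63 CPM in WT and 34.0, 27.9 and 22.7 CPM in KO (edgeR log2 fold change 0.86 with SE 0.18, adjusted p = 0.735), and its gene model overlaps that of Med12l. Ptprc, the CD45 gene, had −0.45 (SE 0.20) and Cx3cr1 −0.30, the latter overlapping other tested genes. Of the 6 other perivascular macrophage genes 2 were above 0, with F13a1 at −0.26 and Clec10a at 0.40. This count was 6 of 6 without WT replicate 1, 4 of 6 without KO replicate 1 and 3 of 6 without either female library, and it was unchanged without WT replicate 2 or KO replicate 2. Of the 8 other activated microglia genes 5 were above 0, with a median of 0.19, Ch25h at 0.59 (SE 0.26) and Itgax at 0.61 (SE 0.39). The median ranged from 0.01 without WT replicate 2 to 0.54 without either female library, and it was 0.02 without KO replicate 1. Gene models of the partners Il34, Gas6, Ciita and Ch25h also overlap a tested gene (Gm15894, Tmem255b, Dexi and Gm26902 in that order). Their values are uncertain for the same reason as those of the overlapping members.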

How the data were processed

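Messenger RNA libraries were made from total RNA extracted with a phenol-based reagent, per the labels' protocols. The submitters' processing notes name FastQC 0.11.2, Trimmomatic 0.36 and bedtools 2.26.0. Which aligner, counting tool, strand setting and genome build were used is not given in the sources used here. Per the file headers, the authors deposited whole-number counts, TPM and FPKM per gene and library. The deposited counts were used for all tests and the deposited TPM for levels, ratios and 1 alternative. The deposited FPKM values were checked as proportional to TPM and not used further. Of the gene identifiers, 99.6% matched GENCODE M21 on GRCm38.

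Genes were filtered with filterByExpr by genotype (18956 kept) and scaled by TMM. KO and WT were compared with robust quasi-likelihood fits in edgeR 4.0.16 (R 4.3.3) and terms for genotype and sex. P-values were adjusted by Benjamini-Hochberg over all genes tested at 0.05. The SE of a log2 fold change is its size over the square root of F. The test was checked on simulated counts with the same dispersion for every gene, no deviating library and changes larger than those of the members. That check does not tell whether changes of the size seen here could be detected. The floors cover counting error only, whereas SE and SD values include the spread between libraries. Alternatives were other scalings, filters and tools (DESeq2 1.42.0, limma 3.58.1 on log2(TPM + 1)), no sex term, a replicate block and leaving out each library. Leaving out WT replicate 1 and KO replicate 1 together was chosen after seeing the data.

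All 39 members are accounted for. Library values are given for members with an unadjusted p under 0.05 or no overlap between genotypes and for Tmem119, Csf1r, Sall1, Spi1, the C1q genes, Trem2, Tyrobp, Cd68, Lpl, Mrc1 and Stab1. Library values of Lyz2 and Cybb were added after their values were seen. Of each partner list the 2 genes with the smallest p are named, and always Csf1, Il34, Tgfb1, Apoe and Cx3cr1; 1 further gene of this rule is not reported here. The members and lists were chosen with earlier results of these data known. Promoters of 30 of the 39 members were matched by symbol in a RefSeq table on GRCm38.p6.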

Additional observations from a re-analysis of the deposited data

How the results depend on the processing

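No member passed the adjusted threshold under any of the 15 alternatives, and the smallest adjusted p of a member was 0.188, for Cd68 with DESeq2. Cd68 had log2 fold changes of 0.19 to 0.73 over these alternatives (adjusted p 0.188 to 0.999), Sall1 0.10 to 0.54 (adjusted p 0.463 to 0.999) and Lpl 0.08 to 0.49 (adjusted p 0.424 to 0.999). Over all genes, 1 passed in the fit reported, 4 without a low-count filter, 74 with DESeq2, 4 with limma-trend on log2(TPM + 1), 3 without the sex term and 0 with the replicate number as a block. Leaving out 1 library gave 0 to 20 genes (7 without KO replicate 1, 20 and 15 without a female library, which leaves the contrast of the 4 males), and leaving out WT replicate 1 with KO replicate 1 gave 0. The median log2 fold change of the members was −0.257 with limma-trend on log2(TPM + 1), where all genes had −0.239, and −0.126 with library totals alone, where all genes had −0.169. With 1 library left out it ranged from −0.09 without KO replicate 2 to 0.118 without KO replicate 1 and it was 0.12 without WT replicate 1 and KO replicate 1 together. The cause of these shifts was not tested. The deviations of same-numbered libraries from their genotype means had correlations of −0.044, 0.019 and 0.018. Same-numbered libraries share their number and sex, and these values cannot tell whether they also share a batch. The replicate block left 22 members above 0 with a median of 0.025. The 3 libraries per genotype limit what could be detected, and Ms4a7 had the fewest counts of the members, at 9 to 40 per library.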

Other observations

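The difference of the genotype effect between the sexes was fitted as an interaction of genotype and sex with edgeR, which rests on 1 female library per genotype. By its adjusted p 0 members and 14 genes passed. Irf8 was the 1 member with an unadjusted p under 0.05 (difference of log2 fold changes, female minus male, 1.35, edgeR adjusted p = 0.351). The WT female held 165 counts of Irf8, and the other libraries held 289 and 292 in WT and 140, 242 and 226 in KO.

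The deviation of KO replicate 1 was taken from the mean of all other libraries, WT and KO. Across the 39 members, the Spearman correlations of this deviation were −0.243 with the GC content of the transcript and 0.249 with its length. Across 15454 protein-coding genes tested in the same library these were −0.37 and 0.262. These are descriptions across genes of 1 library, which are not independent replicates.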
